A study of Mus musculus with 2 samples.

Results

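The 7 genes Ccr7, Ccl22, Ccl17, Fscn1, Cd40, Relb and Cacnb3, which mark the maturation and migration of dendritic cells, were followed through adrenal glands. They were chosen by symbol, all 7 were found among the 32245 gene symbols of the count tables, and each had unique molecular identifiers (UMIs, 1 per captured RNA molecule) in both libraries. The glands came from female C57BL/6J mice carrying SF1-Cre and floxed alleles of Znrf3 (genotype SF1-Cre+;Znrf3Fx/Fx), a line in which Cre from the SF1 promoter removes Znrf3, an inhibitor of Wnt signalling, in steroid-producing cells of the cortex and not by design in immune cells. There was 1 library at 6 weeks, pooled from 2 adrenals, and 1 at 9 weeks, pooled from 3 adrenals, the ages that the study places at the switch from hyperplasia to regression. No treatment beyond the genotype was given in the labels, and no mice with intact Znrf3 were analysed here. Red blood cells had been lysed, and viable cells positive for the DNA dye Ruby and negative for DAPI had been sorted before 3′ capture.

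Dendritic cells take up antigen in tissues and, on maturation, switch on Ccr7, the chemokine receptor that guides them along Ccl19 and Ccl21 to lymph nodes, together with the actin bundler Fscn1, which shapes their dendrites. Signals through Cd40, a receptor of the TNF receptor family bound by Cd40lg on helper T cells, activate the alternative NF-kappaB pathway, in which the kinase Map3k14 drives processing of Nfkb2, the partner of the subunit Relb. Ccl22 and Ccl17 are chemokines that attract T cells bearing Ccr4. Cacnb3 encodes an accessory beta subunit of voltage-gated calcium channels and recurs among transcripts of mature dendritic cells.

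The cells that remained after filtering numbered 8119 at 6 weeks and 9932 at 9 weeks, with medians of 11347 and 7028 UMIs per cell. No deposited cell annotation was used, so classes were rebuilt by clustering without the 7 genes and named from markers that exclude them. With 1 library per age, differences between ages have no replicate check and carry no test; every interval (CI) below is an exact 95% interval that covers counting error only. The libraries shared 29 barcodes, which is 0.327% of the barcodes at 6 weeks and 0.268% at 9 weeks. Cells with those barcodes were counted in the values given. Levels are the UMIs of a gene in a cell group scaled to 1000000 UMIs of that group (CPM), since the 3′ counts do not depend on transcript length, and they are compared here between groups for 1 gene at a time.

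Among cells with dendritic markers, 1 cluster carried the maturation markers and was called mature dendritic-like. It held 9 cells at 6 weeks and 21 at 9 weeks, with medians of 9027 and 12787 UMIs. Its 10 maturation markers, which include Il4i1, Socs2, Traf1 and Cd200, summed to 4760 and 4413 CPM, none of them at 0, against 153 and 118 CPM in most type 1 dendritic-like cells. The type 1 markers, led by Xcr1 and Clec9a, summed to 263 and 461 CPM in the mature cells, and the type 2 markers summed to 37.6 and 141 CPM with Cd209a, Clec10a and Mgl2 at 0. Markers of other cells were present at low sums: 12 T and NK cell markers at 313 and 166 CPM with Cd3e, Cd3d and Cd3g at 0, 9 macrophage markers at 25.1 and 145 CPM, 7 B cell markers at 0 and 195 CPM, 8 monocyte markers at 12.5 and 203 CPM with Ly6c2 and Ccr2 at 0, 10 neutrophil markers at 12.5 and 141 CPM, and adrenocortical markers at 250.5 and 125 CPM. The part of those cells' RNA in the levels below was not tested.

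A second cluster mattered for the chemokines. It carried type 1 markers (3376 and 3799 CPM, against 4192 and 4461 CPM in the other type 1 cells) and was led by Egr3, Cxcl9, Serpina3g, Iigp1 and Nr4a3, genes known to follow receptor activation or interferon. It is called Egr3-led type 1 dendritic-like here and held 31 cells at 6 weeks and 57 at 9 weeks, with medians of 13615 and 14272 UMIs. Macrophage markers summed to 877 and 379 CPM in it. The other type 1 cells numbered 168 and 889, type 2 cells 68 and 107, and plasmacytoid cells 24 and 38. Dendritic clusters with 42 and 181 cells stayed unnamed because genes of T cells, B cells, cortical cells or macrophages were among their leading genes.

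The genes lie on 6 chromosomes of the mouse build mm10 (GENCODE M21 gene bounds), and Ccl22 and Ccl17 lie near each other on chromosome 8. Ccr7 (ENSMUSG00000037944) spans chr11:99144196-99155077 on the minus strand. Ccl22 (ENSMUSG00000031779) spans chr8:94745590-94751699 and Ccl17 (ENSMUSG00000031780) chr8:94810453-94812036, both on the plus strand. Fscn1 (ENSMUSG00000029581) spans chr5:142960343-142973185 on the plus strand, and Cd40 (ENSMUSG00000017652) chr2:165055627-165072948 on the plus strand. Relb (ENSMUSG00000002983) spans chr7:19606217-19629438 on the minus strand, and Cacnb3 (ENSMUSG00000003352) chr15:98630840-98644529 on the plus strand.

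By share of UMIs, given below, some of the genes went with the mature cells and some with the Egr3-led cells. The promoters of 2 genes of each kind are shown, from 250 bases before to 50 bases after the start. They are as RefSeq places them on GRCm38.p6, all on the plus strand and written 5′ to 3′. RefSeq promoter entries matched 4 of the 7 genes, and Ccr7, Cd40 and Relb are named only. Capitals mark windows of 10 bases within 1 letter of the NF-kappaB consensus, searched on both strands, where neighbouring windows can overlap. The first is Ccl22 at chr8:94745434-94745733, the second Ccl17 at chr8:94810203-94810502, the third Fscn1 at chr5:142960105-142960404 and the fourth the second annotated start of Cacnb3 at chr15:98634517-98634816.
Ccl22: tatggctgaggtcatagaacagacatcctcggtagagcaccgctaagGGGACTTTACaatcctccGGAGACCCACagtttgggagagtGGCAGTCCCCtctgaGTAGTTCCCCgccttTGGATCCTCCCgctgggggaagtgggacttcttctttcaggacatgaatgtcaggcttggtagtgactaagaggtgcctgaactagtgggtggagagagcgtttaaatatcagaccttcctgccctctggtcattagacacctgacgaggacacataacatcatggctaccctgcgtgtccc
Ccl17: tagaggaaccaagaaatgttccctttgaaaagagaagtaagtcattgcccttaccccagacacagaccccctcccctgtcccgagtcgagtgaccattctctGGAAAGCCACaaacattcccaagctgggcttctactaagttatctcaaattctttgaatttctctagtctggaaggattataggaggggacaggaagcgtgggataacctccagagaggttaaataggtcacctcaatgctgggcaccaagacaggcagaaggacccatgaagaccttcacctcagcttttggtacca
Fscn1: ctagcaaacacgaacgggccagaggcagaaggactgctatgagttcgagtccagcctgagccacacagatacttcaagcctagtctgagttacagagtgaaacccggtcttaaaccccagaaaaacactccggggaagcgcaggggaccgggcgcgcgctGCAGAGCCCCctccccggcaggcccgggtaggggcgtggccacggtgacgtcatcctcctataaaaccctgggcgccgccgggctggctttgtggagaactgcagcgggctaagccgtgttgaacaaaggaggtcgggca
Cacnb3: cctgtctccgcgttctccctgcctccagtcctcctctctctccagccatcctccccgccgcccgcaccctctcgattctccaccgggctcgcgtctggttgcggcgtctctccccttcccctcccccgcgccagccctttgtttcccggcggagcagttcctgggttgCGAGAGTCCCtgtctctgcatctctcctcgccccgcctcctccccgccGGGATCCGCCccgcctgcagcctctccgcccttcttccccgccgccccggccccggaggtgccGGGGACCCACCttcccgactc
The Ccl22 window held 6 such matches, Ccl17 held 1 at position -148 from the start, Fscn1 held 1 at -90, and the second Cacnb3 start held 4, while the first Cacnb3 start (chr15:98632078-98632377) held 0. None of the 5 promoter windows held an exact match. Of all 32851 RefSeq promoter windows of this length, 8.46% held an exact match and 63.2% held a match within 1 letter, so a match within 1 letter is common among promoters. The TATA box letters TATAAA stood in the Fscn1 window and in 13.6% of all windows. A match describes the sequence only.

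In the mature cells Ccr7 was at 1253 CPM (CI 1019 to 1523) at 6 weeks and 1179 CPM (CI 1046 to 1325) at 9 weeks, from 100 and 284 UMIs. Every mature cell had a Ccr7 UMI, 9 of 9 and 21 of 21, with 1, 10 and 21 UMIs as the lowest, median and highest cell at 6 weeks and 1, 12 and 40 at 9 weeks. After each cell was thinned to 2000 UMIs, 8 of 9 and 18 of 21 cells still had one. The receptor was thus read throughout the cluster at both ages, while the other type 1 cells had 0 UMIs at 6 weeks (limit 1.31 CPM, 3 counts) and 0.0720 CPM at 9 weeks. The Egr3-led cells were at 28.8 CPM (CI 14.9 to 50.2) and 35.6 CPM (CI 23.9 to 51.2), but only 3 of 31 and 6 of 57 cells had a UMI, and the top 2 cells held 91.7% and 69.0% of the UMIs. Of the 88 Egr3-led cells, 10 lay in the same cluster of all cells as the mature cells before the dendritic cells were clustered again. Type 2 cells had 5.19 and 1.82 CPM, from 3 and 2 UMIs, and plasmacytoid cells had none.

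Fscn1, which bundles actin filaments, followed Ccr7 among dendritic cells. It was at 1365 CPM (CI 1121 to 1647) at 6 weeks and 1270 CPM (CI 1132 to 1421) at 9 weeks in the mature cells, found in 9 of 9 and 18 of 21 of them, and in 8 and 14 after thinning. Its per-cell UMIs ran from 1 over a median of 11 to 28 at 6 weeks, and from 0 over a median of 9 to 59 at 9 weeks. Outside the mature cells it was near 0 in every named dendritic group. The Egr3-led cells held 1 UMI at each age, the other type 1 cells 0.871 and 1.01 CPM, and type 2 cells 0 and 2.73 CPM. Most Fscn1 in these glands lay in quite different cells, as described below for the cortex.

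Relb, the NF-kappaB subunit of the alternative pathway, was found in all 9 and all 21 mature cells, at 877 CPM (CI 684 to 1108) and 884 CPM (CI 770 to 1011). The lowest, median and highest cell had 3, 8 and 13 UMIs at 6 weeks and 4, 10 and 17 at 9 weeks. After thinning, 5 of 9 and 17 of 21 cells had it. Relb was also present at a lower level in the Egr3-led cells, at 110.2 CPM (CI 80.7 to 147) and 109 CPM (CI 87.9 to 135), in 18 of 31 and 33 of 57 cells. Its level was 26.0 and 19.1 CPM in type 2 cells, 26.6 and 20.2 CPM in plasmacytoid cells, and 7.41 and 6.12 CPM in the other type 1 cells. The order mature, Egr3-led, other type 1 held at both ages with intervals that did not overlap.

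Cacnb3, the calcium channel subunit, was found in 9 of 9 and 20 of 21 mature cells (6 and 11 after thinning), at 488 CPM (CI 347 to 668) and 394 CPM (CI 319 to 482). The cells ran from 1 over a median of 3 to 11 UMIs at 6 weeks and from 0 over a median of 4 to 11 at 9 weeks. The Egr3-led cells had 1 UMI at 6 weeks (2.40 CPM) and 9 at 9 weeks (11.1 CPM), in the other type 1 cells 0.871 and 0.576 CPM, and in type 2 and plasmacytoid cells 0 at both ages.

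**Figure D1:**
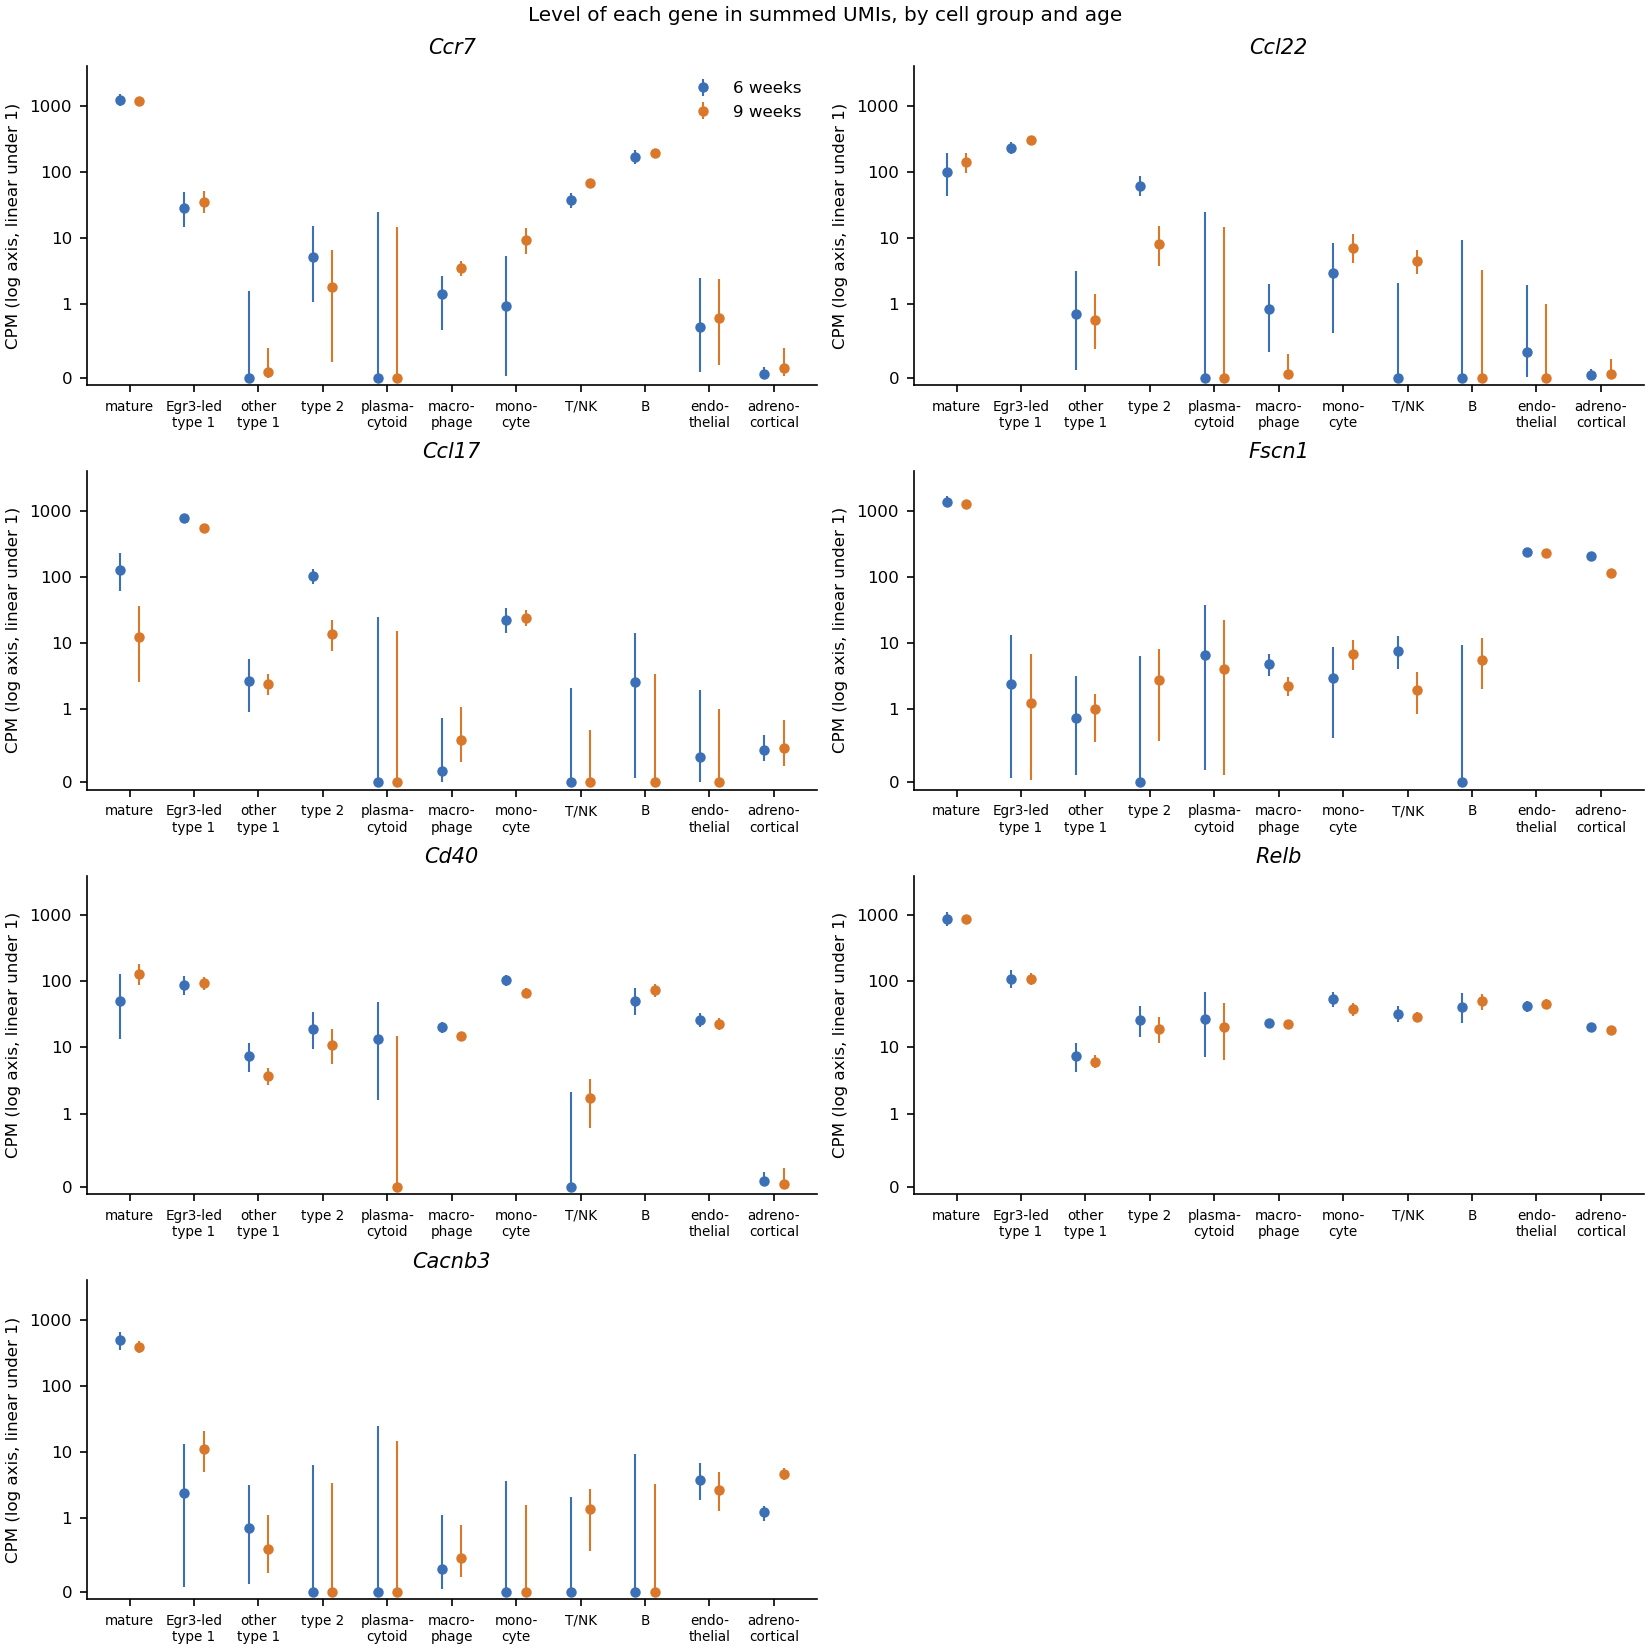
Level of each gene (CPM) in each cell group at 6 and 9 weeks, 1 library per age, with exact 95% counting intervals. Ccr7, Fscn1, Relb and Cacnb3 are highest in the mature dendritic-like cells among the dendritic groups, and Ccl22 and Ccl17 in the Egr3-led cells.

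The chemokines had another distribution. Ccl22 was at 100.2 CPM (CI 43.3 to 197) at 6 weeks and 141 CPM (CI 97.8 to 197) at 9 weeks in mature cells, with a UMI in 4 of 9 and 11 of 21 cells (1 and 3 after thinning) and at most 3 and 8 UMIs in a cell. It was higher in the Egr3-led cells, at 235 CPM (CI 191 to 286) and 310 CPM (CI 273 to 350), found in 12 of 31 and 25 of 57 cells (38.7% and 43.9%, or 24.1% and 21.4% after thinning). That level rests on few cells. At 6 and 9 weeks the top Egr3-led cell held 39.8% and 34.1% of the group's Ccl22 UMIs, and the top 2 cells held 56.1% and 57.5%. The other type 1 cells had 0.871 and 0.792 CPM, and 0.0538% and 0.0699% of adrenocortical cells had a Ccl22 UMI. The median mature cell had 0 and 1 Ccl22 UMIs, so at this depth a cell without a UMI is not shown to lack the RNA.

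Ccl17 also lay unevenly over cells. It was at 781 CPM (CI 699 to 871) at 6 weeks and 543 CPM (CI 494 to 596) at 9 weeks in the Egr3-led cells, from 15 of 31 and 12 of 57 cells (48.4% and 21.1%, or 24.1% and 10.7% after thinning). At 6 weeks the top cell held 22.4% of the group's Ccl17 UMIs, and at 9 weeks a single cell held 72.9% and the top 2 cells held 91.6%. In the mature cells it was at 125 CPM (CI 60.1 to 230) from 10 UMIs in 2 cells and at 12.5 CPM (CI 2.57 to 36.4) from 3 UMIs in 3 cells, and 1 cell held 90.0% of the 10. These levels therefore rest on very few cells. Type 2 cells had 102 CPM (CI 77.7 to 132) and 13.6 CPM (CI 7.63 to 22.5), with 79.7% of the UMIs at 6 weeks in 2 cells, and Ccl22 there was at 62.3 and 8.18 CPM with 69.4% of the UMIs at 6 weeks in 1 cell.

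Cd40, the receptor for the T cell ligand, was at 50.1 CPM (CI 13.7 to 128) in mature cells at 6 weeks, from 4 UMIs in 2 of 9 cells, and at 129 CPM (CI 87.5 to 183) at 9 weeks, from 31 UMIs in 15 of 21 cells. After thinning, 2 and 4 of these cells had it. In the Egr3-led cells it was at 88.6 CPM (CI 62.4 to 122) and 93.4 CPM (CI 73.6 to 117), in 15 of 31 and 19 of 57 cells. The mature and Egr3-led groups overlapped in their intervals at both ages. Type 2 cells had 19.0 and 10.9 CPM and the other type 1 cells 7.41 and 3.67 CPM.

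**Figure D2:**
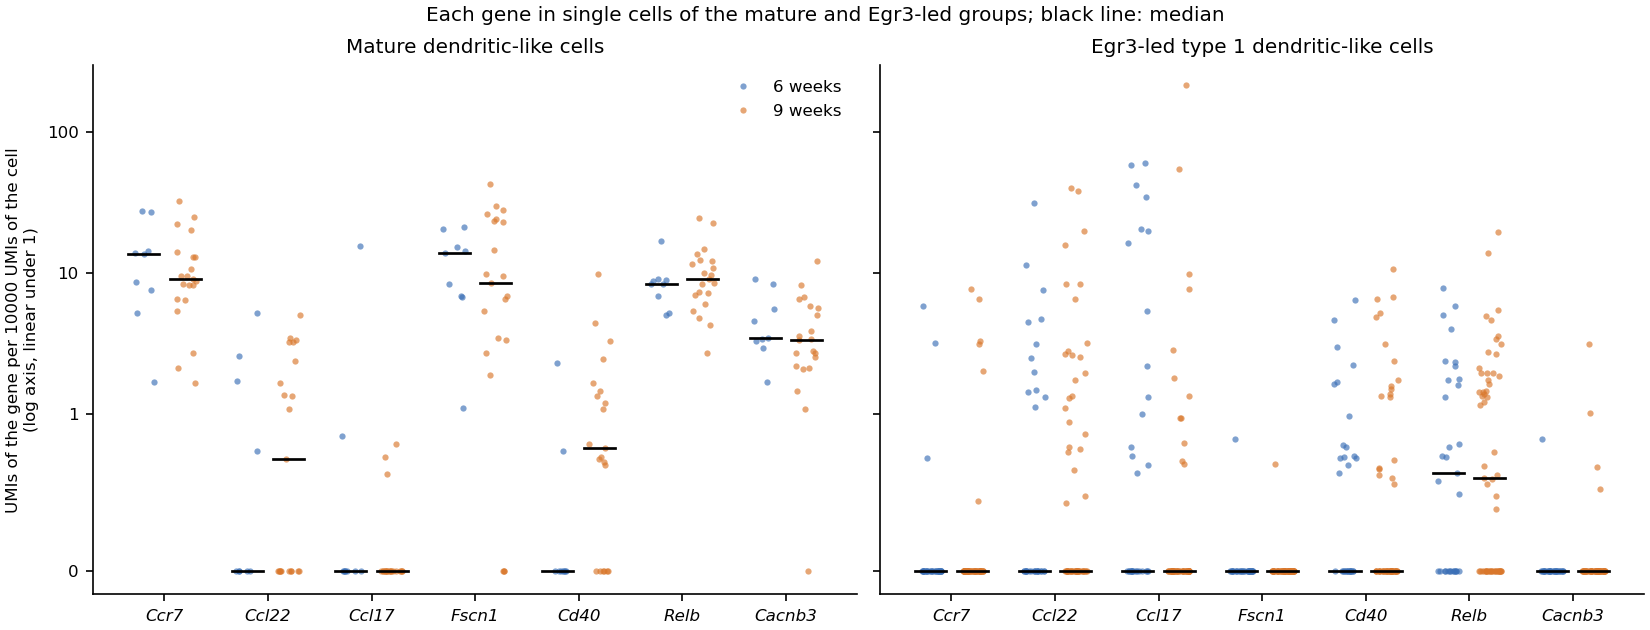
UMIs of each gene per 10000 UMIs of the cell (log axis, linear under 1), 1 point per cell in the mature and Egr3-led groups, with the median as a black line. In the mature cells every point for Ccr7 and Relb lies above 0, while in the Egr3-led cells Ccl22 and Ccl17 range from 0 in most cells to a few very high cells.

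Counted over the named dendritic cells of both ages, the mature cells supplied 94.8% of the Fscn1 UMIs (CI 92.2 to 96.6), 89.1% of the Ccr7 UMIs (CI 85.8 to 91.9) and 87.0% of the Cacnb3 UMIs. They supplied 50.1% for Relb, 14.5% for Cd40, 9.33% for Ccl22 and 1.45% for Ccl17. The Egr3-led cells supplied 85.9% of the Ccl17 UMIs (CI 83.5 to 88.1), 77.8% of the Ccl22 UMIs (CI 73.7 to 81.5), 46.9% for Cd40 and 23.9% for Relb, but 9.51% for Ccr7, 6.49% for Cacnb3 and 0.457% for Fscn1. By share of UMIs the 7 genes thus divided into a group of the mature cells (Ccr7, Fscn1, Cacnb3), a group of the Egr3-led cells (Ccl22, Ccl17) and Relb and Cd40, which both carried. The shares follow group size too, since the Egr3-led cells held 417402 and 813635 UMIs of all genes and the mature cells 79838 and 240860. For Ccl22 the division is not one of cells. Before thinning, the part of cells with a Ccl22 UMI was similar in both groups, and after thinning it was lower in the mature cells. UMIs of 1 cell are not independent, so the intervals are too narrow where few cells hold the UMIs. For Ccl17, 1 Egr3-led cell at 9 weeks held 322 of the 894 UMIs. With the unnamed dendritic clusters counted as dendritic, an alternative added after seeing the data, the mature share was 69.3% for Ccr7 and 80.9% for Fscn1, and the Egr3-led share was 72.7% for Ccl17.

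**Figure D3:**
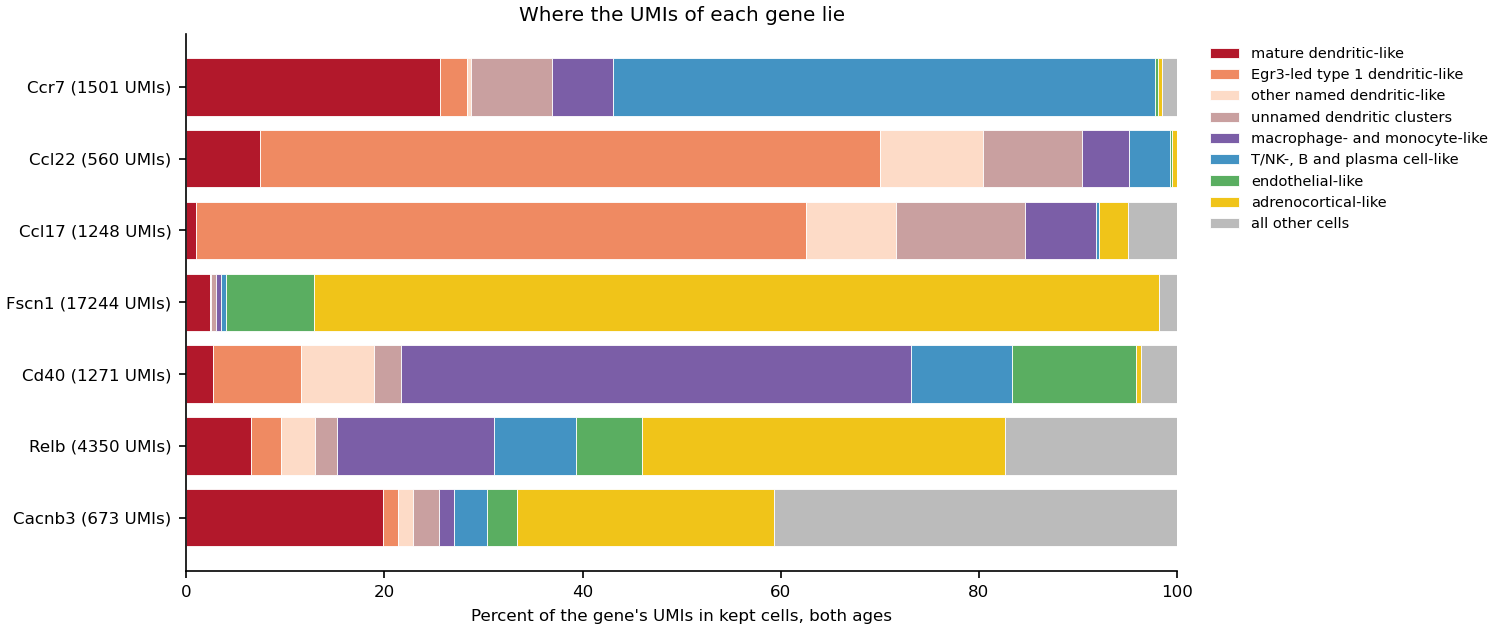
Percent of each gene's UMIs in all kept cells that came from each cell group, dendritic or not, both ages together. The mature cells give 25.6% of the Ccr7 and 2.41% of the Fscn1 UMIs. The Egr3-led cells give 62.5% of the Ccl22 and 61.5% of the Ccl17 UMIs, and adrenocortical cells give most of the Fscn1 UMIs.

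Single cells were then compared. A mature cell had a UMI of a median of 5 of the 7 genes at both ages (4 to 6 genes at 6 weeks, 3 to 7 at 9 weeks), and 3 after thinning. Ccr7, Fscn1, Relb and Cacnb3 were found together in 9 of 9 and 17 of 21 mature cells, whereas Ccl22, Ccl17 and Cd40 were found together in 0 and 1. In the Egr3-led cells the median was 2 genes at 6 weeks and 1 at 9 weeks, with Ccl22, Ccl17 and Cd40 together in 8 of 31 and 6 of 57 cells and the other 4 together in 1 and 0. Of the other type 1 cells, 140 of 168 and 748 of 889 had none of the 7 genes. Pairs of genes were counted in the named dendritic cells thinned to 2000 UMIs, without the unnamed clusters and shallower cells. Fscn1 was found in 21 of 29 cells with Ccr7 (72.4%) and in 0.441% of the cells without it. Ccr7 was found in 15 of 20 cells with Cacnb3 (75.0%). Ccl22 was found in 10 of 25 cells with Ccl17 (40.0%) and in 1.54% of those without, and Ccr7 in 3 of those 25. Other pairs crossed the division: Ccl22 was found in 6 of the 29 cells with Ccr7 (20.7%) and in 1.84% of those without, and of 27 cells with Cd40, 7 had Ccr7, 7 had Relb, 4 had Ccl22 and 3 had Ccl17.

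**Figure D4:**
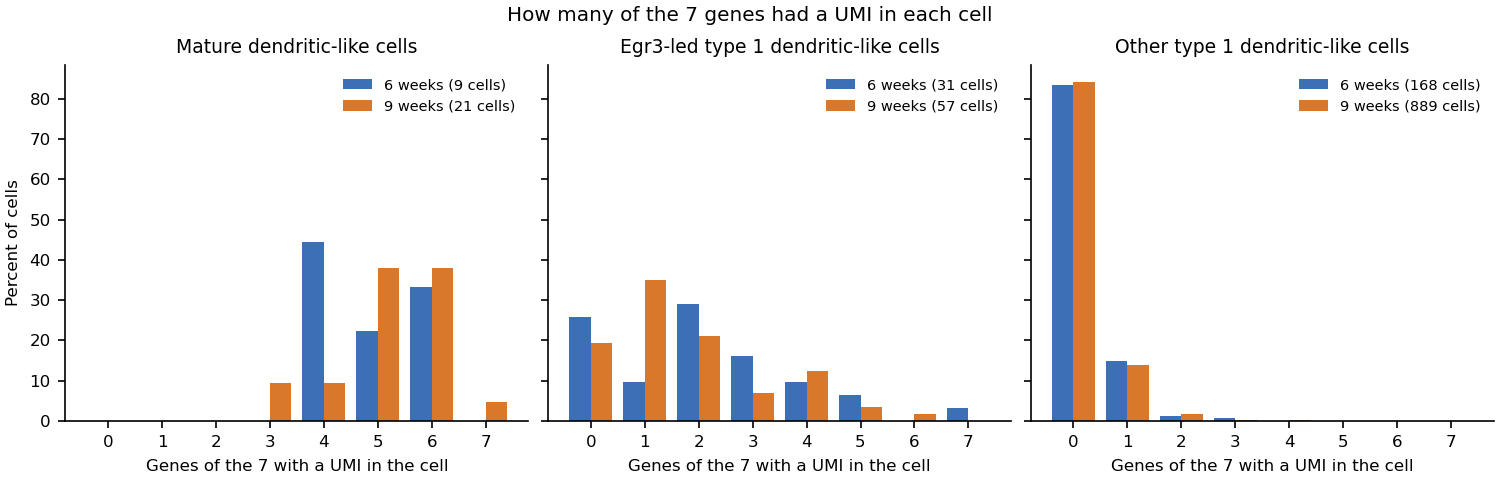
Percent of cells (y axis) by how many of the 7 genes had at least 1 UMI (x axis), for the dendritic groups at each age. Mature cells have 3 to 7 of the genes, and most other type 1 cells have none.

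Against the other type 1 cells of the same library, 13% of the 7054 genes measured were at least 1.5-fold higher in the mature cells at both ages and 27.5% were lower. All 7 members were among the higher genes, but each was under 10 CPM in the other type 1 cells and so entered through the mature cells alone, and nothing is read from that count. On the log2 scale with 5 CPM added, the difference was 7.97 at 6 weeks and 7.87 at 9 weeks for Ccr7, 7.87 and 7.73 for Fscn1, 6.39 and 6.16 for Cacnb3, and 6.15 and 6.32 for Relb. It was 4.16 and 4.66 for Ccl22, 2.15 and 3.95 for Cd40, and 4.10 and 1.24 for Ccl17. For the Egr3-led cells 4.97% of 6837 genes measured were higher at both ages and 6.41% were lower. The 5 members measured there likewise entered through the Egr3-led cells alone, and their differences are given as a description: Ccl17 was higher by 6.69 and 6.22, and Ccl22 by 5.35 and 5.76. Relb there was higher by 3.22 and 3.36, Cd40 by 2.92 and 3.50 and Ccr7 by 2.76 and 3.00, while Fscn1 and Cacnb3 did not reach the 10 CPM and 10 UMIs required of a measured gene at both ages.

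Between ages the mature cells as a share of all cells were 0.111% (CI 0.0507 to 0.210) at 6 weeks and 0.211% (CI 0.131 to 0.323) at 9 weeks, a ratio of 1.91 (CI 0.838 to 4.73). As a share of the named dendritic cells, 300 and 1112 in number, they were 3.00% and 1.89%, a ratio of 0.630 (CI 0.276 to 1.56). The type 1 cells over the same interval went from 2.45% to 9.53% of all cells. The Egr3-led cells were 15.6% (CI 10.8 to 21.4) of type 1 cells at 6 weeks and 6.03% (CI 4.60 to 7.74) at 9 weeks, a ratio of 0.387 (CI 0.246 to 0.620). Their share of all cells was 0.382% and 0.574%.

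Within the mature cells 2 of the 7 genes passed 1.5-fold between ages, where 40.3% of the 3326 genes measured in these 30 cells did, so the count was not above that background. Cd40 was 1.28 higher at 9 weeks on the log2 scale, a ratio of 2.57 (CI 0.908 to 10.0). Monocyte and B cell marker sums moved with it as given above, and their part in the result was not tested. Ccl17 was lower by a log2 ratio of -2.90, a ratio of 0.0994 (CI 0.0176 to 0.386). Without the cell richest in Ccl17 in each library, an alternative added after seeing the data, its log2 ratio was -0.41 and it no longer passed, and that of Ccl22 was 0.73 and did. Across the other genes the ratio was 0.941 (CI 0.747 to 1.20) for Ccr7, 0.931 (CI 0.746 to 1.17) for Fscn1, 1.01 (CI 0.767 to 1.34) for Relb, 0.807 (CI 0.551 to 1.20) for Cacnb3 and 1.41 (CI 0.640 to 3.52) for Ccl22. Trimmed mean scaling moved all log2 ratios of the mature cells up by 0.24, which put Ccr7 at 0.16 and Fscn1 at 0.14 on the log2 scale and took Ccl22 past 1.5-fold at 0.71. The counting intervals of Ccr7, Fscn1, Relb and Cacnb3 all contain a ratio of 1.

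In type 1 dendritic-like cells as a whole, 4 of the 7 genes were measured and 4 of those 4 were lower at 9 weeks, where 2.86% of the 7061 genes measured passed in either direction. Cd40, at 8.64 CPM at 9 weeks, reached the measured level of 10 CPM through the 6-week library alone, so this count is a description. Ccl17 fell from 122 to 32.3 CPM, a ratio of 0.264 (CI 0.229 to 0.305). Ccl22 fell from 36.9 to 17.9 CPM, a ratio of 0.485 (CI 0.384 to 0.617). Cd40 fell from 19.9 to 8.64 CPM, a ratio of 0.434 (CI 0.313 to 0.608), and Relb from 23.2 to 11.8 CPM, a ratio of 0.510 (CI 0.380 to 0.691). The share of Egr3-led cells among type 1 cells moved with these values, as given above. Within the Egr3-led cells Ccl22 had a ratio of 1.32 (CI 1.04 to 1.68), Ccl17 0.696 (CI 0.602 to 0.805), and Cd40 and Relb overlapped between ages. The Ccl22 and Ccl17 ratios rest on the few Egr3-led cells described above. There 1 of the 6 genes measured passed 1.5-fold, where 24.1% of 6871 genes did. It was Cacnb3 with 1 and 9 UMIs and a ratio of 4.62 (CI 0.640 to 202), which reached the measured level at 9 weeks alone. Without the top cell of each library, Ccl17 in the Egr3-led cells had a log2 ratio of -2.02 and in type 1 cells -2.71, while Relb in type 1 cells, at -0.57, no longer passed. In the other type 1 cells no member reached the measured level. At a lower resolution of the dendritic clustering (0.5 in place of 1), where neither the mature nor the Egr3-led cells formed a named group, 0 of the genes passed in the remaining type 1 cells.

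In type 2 dendritic-like cells 3 of the 4 genes measured were lower at 9 weeks, where 19.9% of 7973 genes passed. Ccl22, at 62.3 and 8.18 CPM, reached the measured level at 6 weeks alone, so this count too is a description. Ccl17 had a log2 ratio of -2.52 and Ccl22 one of -2.35, each resting on the 1 or 2 cells described above. Without the top cell Ccl22 was at -1.24. Cd40 had a log2 ratio of -0.60, which was 0.31 when cells needed at least 1000 genes and -0.47 without the top cell, under 1.5-fold.

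**Figure D5:**
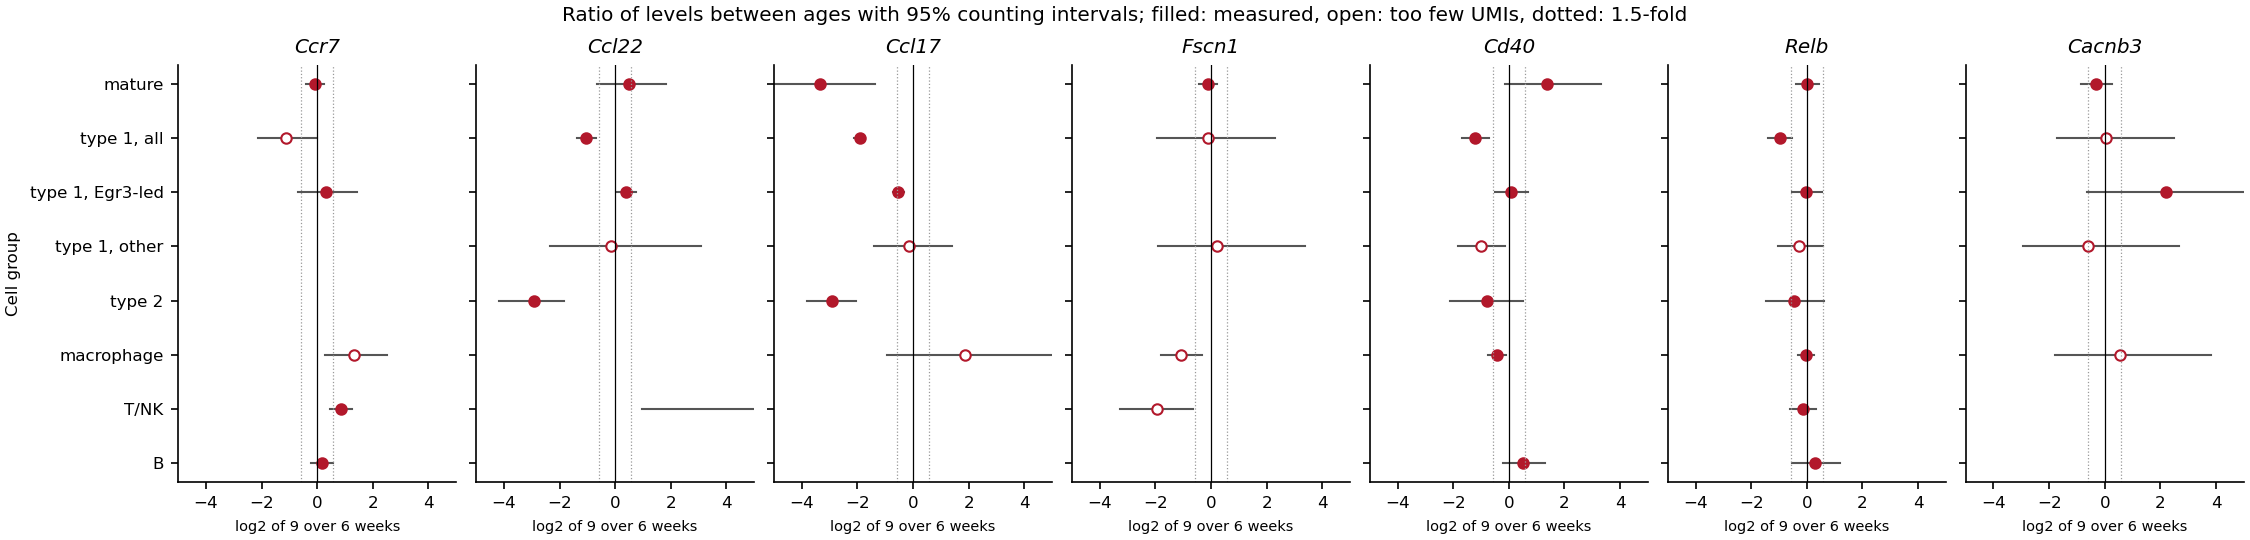
Log2 ratio of the level at 9 over 6 weeks for each gene in 8 cell groups, with exact 95% counting intervals clipped at the axis ends, filled points for genes that reached the measured level and dotted lines at 1.5-fold. The type 1 group as a whole lies below 0 for Ccl22, Ccl17, Cd40 and Relb, while its Egr3-led cells lie near 0 for Cd40 and Relb.

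Macrophage-like cells, 978 and 2297 in number with medians of 5944 and 7153 UMIs, carried Cd40 and Relb and little of the rest. Cd40 was at 20.1 CPM (CI 16.8 to 23.9) and 14.9 CPM (CI 13.2 to 16.9), in 10.4% and 9.23% of cells and in 4.30% and 3.06% after thinning. In adrenocortical cells, which should lack it, 0.135% and 0.0699% of cells had a Cd40 UMI at medians of 15738 and 15487 UMIs. Relb was at 23.3 and 22.7 CPM. Neither gene passed 1.5-fold between ages, 0 of 2 measured, where 4.12% of 7879 genes did. Ccl22, Ccl17 and Cacnb3 were all below 1 CPM in macrophages at both ages, and Fscn1 was at 4.71 and 2.24 CPM. Ccr7 was at 1.41 and 3.51 CPM from 9 and 61 UMIs, of which 8 and 42 came from a cluster of 29 cells at 103 and 167 CPM whose leading genes include the T cell factor Tcf7. Monocyte-like cells had more Cd40, at 104.6 CPM (CI 85.7 to 126) and 67.5 CPM (CI 57.5 to 78.9), and their Ccl17, at 22.5 and 23.8 CPM, came from 3 and 2 cells.

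Ccr7 in lymphocytes marks cells that home to and recirculate through lymph nodes, such as naive and central memory T cells and B cells. In T/NK-like cells, 394 and 1090 in number, it rose from 37.7 CPM (CI 29.2 to 48.0) to 68.4 CPM (CI 61.5 to 76.0), a ratio of 1.82 (CI 1.39 to 2.40) and a log2 ratio of 0.78. It was found in 9.65% and 15.2% of cells, and in 7.94% and 10.7% of the 340 and 1012 cells deep enough to thin. Adrenocortical cells had a Ccr7 UMI in 0.0807% and 0.210% of cells. Markers of other cells moved in the T/NK group as well: neutrophil markers summed to 4.57 and 655 CPM, macrophage markers to 266 and 816, B cell markers to 25.1 and 48.4 and adrenocortical markers to 844 and 282. Neutrophils had Ccr7 at 0 and 2.49 CPM and macrophages at 1.41 and 3.51 CPM. With the 3 T/NK clusters that had genes of other lineages among their leading genes left out, chosen after seeing the data, the log2 ratio was 0.81. Of the 2 genes measured in T/NK cells, Ccr7 passed 1.5-fold and Relb, at 32.6 and 29.4 CPM, did not, where 6.52% of 7979 genes passed. S1pr1, the receptor for exit from lymph nodes, rose as well, from 45.7 to 80.1 CPM.

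Within T/NK cells most Ccr7 lay in a cluster with Cd8a whose leading genes include Dapl1, Igfbp4 and Lef1, genes of naive T cells. There it was at 275 and 348 CPM, in 27 of 54 and 132 of 198 cells, a ratio of 1.27 (CI 0.934 to 1.75), and that cluster was 13.7% and 18.2% of T/NK cells. A cluster with Foxp3 and endothelial genes had 199 and 164 CPM. The 23 Ccl22 UMIs of T/NK cells at 9 weeks came from 2 cells of a cluster with mixed leading genes.

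B cell-like cells, 136 and 330 in number with medians of 2358 and 2846 UMIs, had Ccr7 at 171 CPM (CI 133 to 217) and 192 CPM (CI 167 to 219), in 33.8% and 41.2% of cells and in 34.9% and 30.7% after thinning. Cd40, which on B cells receives T cell help, was at 51.1 CPM (CI 31.2 to 79.0) and 73.2 CPM (CI 58.1 to 91.0), in 14.7% and 21.8% of cells and in 15.6% and 16.3% after thinning. Relb was at 40.9 and 49.7 CPM. None of these 3 measured genes passed 1.5-fold, where 22.6% of 7696 genes did, and their intervals overlapped between ages. Plasma cell-like cells had Ccr7 at 24.3 and 78.1 CPM, a ratio of 3.22 (CI 2.09 to 5.09).

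Across all cells the genes differed in how much of their RNA dendritic cells held. Of 308 Ccr7 UMIs at 6 weeks, 32.5% came from the mature cells, 21.4% from T/NK cells and 21.8% from B cells, and of 1193 at 9 weeks 23.8%, 29.5% and 17.8%, so the mature cells came before T/NK cells at 6 weeks and after them at 9 weeks. Of 560 Ccl22 and 1248 Ccl17 UMIs at both ages, 62.5% and 61.5% came from the Egr3-led cells. Of 1271 Cd40 UMIs, 30.5% came from macrophages, 20.9% from monocytes, 12.5% from endothelial cells and 2.75% from mature cells. For Ccr7, Cd40, Fscn1, Relb and Cacnb3, most UMIs of the whole gland came from outside the dendritic clusters. Such shares also follow how many UMIs each group holds in all. At 6 weeks adrenocortical cells held 58639090 of 86288611 UMIs, and at 9 weeks 21659644 of 88549249. Adrenocortical cells gave 91.8% of the Fscn1 UMIs at 6 weeks and 63.3% at 9 weeks. For Relb they gave 54.5% and 18.5%, the latter beside 18.3% from macrophages. By level, Relb was at 20.3 and 18.5 CPM in adrenocortical cells and at 877 and 884 CPM in the mature cells. Of 673 Cacnb3 UMIs, 38.6% came from an unnamed cluster led by Ecrg4, Vsnl1 and Hsd3b6 and 19.9% from the mature cells. That cluster scored best as adrenocortical (0.641, with 9 markers found). It stayed unnamed because its leading genes held a marker of another class and none of its own. It also held 351 and 311 Relb UMIs, beside 1193 and 400 in the named adrenocortical cells. Cacnb3 was at 14.37 and 14.35 CPM in that cluster and at 488 and 394 CPM in the mature cells.

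Fscn1 was at 208 CPM (CI 204 to 211) in adrenocortical cells at 6 weeks and 116 CPM (CI 111 to 121) at 9 weeks, a ratio of 0.558 (CI 0.534 to 0.583), and was found in 82.5% and 58.4% of them. Within the 3 large adrenocortical clusters the ratio was 0.840, 0.818 and 0.832, from 238 to 199.6, 197 to 161 and 37.1 to 30.9 CPM. The cluster with the highest level was 62.0% of adrenocortical cells at 6 weeks and 14.2% at 9 weeks. Endothelial cells had Fscn1 at 240.1 and 229 CPM. The level in mature dendritic-like cells was above both at each age, and free RNA was estimated at 0.951% to 4.78% of UMIs across the groups.

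Of the CD40 and NF-kappaB list, 16 of 21 measured genes were higher in mature than in other type 1 cells at both ages. None was lower, beside 13% higher and 27.5% lower among all genes. Genes under 10 CPM in the other type 1 cells, such as Nfkb2, entered through the mature cells alone. The list also holds the naming marker Traf1, so its count is given as a description. Nfkb2, the partner of Relb, was at 313 and 212 CPM in mature cells, 52.7 and 50.4 in Egr3-led cells and 8.28 and 8.57 in other type 1 cells. Map3k14, the kinase above it, was at 250.5 and 178.5 CPM against 28.8 and 41.8 and then 16.1 and 14.5. Nfkb1, of the classical pathway, followed this order at 6 weeks only, at 138 and 95.5 CPM in mature, 122 and 102 in Egr3-led and 91.5 and 90.5 in other type 1 cells. Traf1, an adaptor of TNF receptors and one of the naming markers, was at 852 and 980 CPM in mature cells and 21.4 and 14.0 in other type 1 cells. The Egr3-led cells had 13 of 20 genes higher, beside 4.97% of all genes. Nfkb2 likewise entered there through the Egr3-led cells alone, so that count is a description too. Between ages in mature cells 3 of 19 genes of this list were higher at 9 weeks and none lower (Birc3, Chuk and Nfkbia), under the 40.3% of all genes that passed in these cells, with a median log2 ratio of -0.02, against -0.01 over all genes measured. Birc3 was at 125 and 228 CPM and Nfkbia, the inhibitor of NF-kappaB, at 388 and 693 CPM.

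Of the maturation and co-stimulation list, 11 of 14 measured genes were higher in mature than in other type 1 cells and 1, Cd86, was lower. The shares of all genes were the same 13% and 27.5%. Il12b, at 0 in the other type 1 cells, entered through the mature cells alone, so this count is also a description. Il12b, a subunit of interleukin 12 and 23, was at 964.5 and 714 CPM in mature cells, 271 and 156 in Egr3-led cells and 0 in other type 1 cells. Cd83 was at 426 and 843 CPM in mature cells and 18.7 and 19.8 in other type 1 cells. Cd86, a ligand of Cd28, was at 100.2 and 41.5 CPM in mature cells, below the 367 and 312 CPM of Egr3-led cells and the 172 and 190.5 CPM of other type 1 cells. Between ages in mature cells 2 of 14 were higher and 5 lower at 9 weeks, a share near the 40.3% of all genes, with a median log2 ratio of -0.48. The lower genes were Cd80, Cd86, Tnfrsf9, Ccl5 and Irf1. Ccl5, a chemokine for T cells and other leukocytes, was at 13239 and 4168 CPM, and Irf1, an interferon regulatory factor, at 401 and 262 CPM.

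The list of regulatory genes of mature dendritic cells holds checkpoint ligands, cytokine signalling genes and the death receptor Fas. Of these, 9 of 11 measured genes were higher in mature than in other type 1 cells and 2, Tgfb1 and Havcr2, were lower, beside 13% and 27.5% of all genes. Il4i1, an enzyme that breaks down aromatic amino acids, was at 701 and 1262 CPM in mature cells and 3.05 and 0.144 in other type 1 cells, and Cd274, the ligand of Pdcd1, was at 125 and 95.5 CPM in mature cells. Il4i1, Socs2 and Cd200 were naming markers. Il4i1 also entered through the mature cells alone, so the count of higher genes is a description. Between ages 3 of 13 were higher (Aldh1a2, Il4i1 and Tgfb1) and 2 lower (Cd200 and Socs1), near the 40.3% of all genes, with a median of 0.10.

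Of the actin and migration list, 8 of 22 genes were higher in mature than in other type 1 cells and 6 were lower, beside 13% and 27.5% of all genes. Marcksl1, an actin-binding protein, was at 576 and 664 CPM against 20.04 and 21.5, and Actg1, a cytoplasmic actin, at 6438 and 5314 CPM against 2826 and 2845. Rac2, a GTPase of blood cells, was at 12.5 and 58.1 CPM against 140.3 and 197. Between ages in mature cells 1 of 18 was higher (Rac2) and 2 lower (Adam8 and Vim), with a median of 0.02. Of the other calcium channel subunits 1 of 18 was measured, Cacna1s, a pore-forming subunit, at 125 and 112 CPM in mature and 29.2 and 26.6 CPM in other type 1 cells.

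The ligands and receptors that pair with the 7 genes were looked up next. Ccl19, a ligand of Ccr7, had 3 and 0 UMIs in mature cells and was at 164 and 28.8 CPM in adrenomedullary-like cells, from 20 UMIs at 6 weeks. That cluster of 41 cells scored equally as fibroblast or capsule (1.000 for each), and Dcn, Mgp and Rgs5 are among its leading genes. Which of its cells held Ccl19 was not tested. Ccl21a, the other ligand, had 0 UMIs in mature cells. Ccl21a was also at 0 in the Egr3-led cells. Ccr4, the receptor for Ccl17 and Ccl22, and Cd40lg, the ligand of Cd40, had 0 UMIs in mature cells, which allows 37.6 CPM at 6 weeks and 12.5 CPM at 9 weeks. In T/NK cells Ccr4 was at 9.71 and 3.69 CPM and Cd40lg at 20.6 and 12.8 CPM, with Cd40lg at 71.4 and 41.3 CPM in the CD4 cluster.

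Of the mitotic list, 10 of 11 genes were lower in the mature cells than in other type 1 cells at both ages. The share of all genes was 27.5%. Mki67, at 0 in the mature cells, entered through the other type 1 cells alone, so this count is a description. Mki67, a marker of cycling cells, was at 0 in the mature cells, which allows 37.6 and 12.5 CPM, at 67.1 and 63.9 CPM in the Egr3-led cells and at 119 and 176 CPM in other type 1 cells. With cells thinned to 2000 UMIs, 0 of 9 and 0 of 21 mature cells, 1 of 29 and 2 of 56 Egr3-led cells (3.45% and 3.57%) and 19.4% and 18.8% of other type 1 cells had 2 or more mitotic UMIs. The upper bounds for the mature cells were 33.6% and 16.1%, so at 6 weeks a difference was not detectable with 9 cells. Without thinning, 0 of 9 and 2 of 21 mature cells had 2 or more. In the Egr3-led cells 11 of 11 mitotic genes were lower than in the other type 1 cells, beside 6.41% of all genes.

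Across 25 cell groups at both ages, 50 points that share 2 libraries and differ in depth, the genes whose log2 levels most resembled the mean of the 7 were Mab21l3 and Il12b (Pearson r of 0.90 each), Lad1 (0.87), Bcl2l14 (0.86), Nudt17, H2-Eb2 and Mreg (0.85 each), Arc and Tm4sf5 (0.84 each) and Il4i1 (0.83). Among the 7 themselves Ccl22 and Ccl17 were most alike (0.865), followed by Fscn1 and Cacnb3 (0.683), and Ccl17 and Fscn1 were least alike (0.0708). These correlations are descriptions over cell groups and not over replicates. Nudt17, Mreg and Il4i1 were among the markers that named the mature cells, so their likeness is not independent of that naming.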

How the data were processed

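The deposited values were UMI counts per gene and barcode, which the authors had not normalized; Cell Ranger 6.0.1, Seurat and mm10 are named per the submitters' processing notes, and no source used here gives the annotation release. Deposited barcodes numbered 8880 at 6 weeks and 10812 at 9 weeks, with 97001752 and 99728879 UMIs. Barcodes with under 500 genes (161 and 221) or over 25% mitochondrial UMIs (111 and 64) and doublets called with Scrublet in scanpy 1.11.5 (489 and 595) were left out. Cells were clustered on 2000 variable genes without the 7 genes (30 components by scikit-learn 1.9.0, 20 neighbours, Leiden resolution 1 in igraph 0.11.9 with leidenalg 0.10.2), and dendritic, lymphocyte and other classes were named from marker lists. Naming needed 3 markers found in 10% of a cluster's cells at 2 times the median cluster. UMIs were summed per group and library (scipy 1.17.1 and numpy 2.4.6 under Python 3.11.15; tables with pandas 2.3.3 and anndata 0.12.19, plots with matplotlib 3.10.9). A gene was called between ages at 1.5-fold on log2(CPM + 5) if it had 10 CPM in 1 library and 10 UMIs over both. Shares of cells were also taken with cells thinned to 2000 UMIs, which left out shallower cells (54 and 78 T/NK cells, for example). Intervals are exact Poisson, Clopper-Pearson or conditional. The scripts were tested on data simulated with counting error only. There 33.75% of unchanged genes passed 1.5-fold in mature cells, where 40.3% of genes passed in the real data. The simulated share was 17.6% in B cells, 12.75% in type 2 cells, 1.15% in T/NK cells, 0.118% in type 1 cells and 0% in macrophages. A call between ages in the mature cells is therefore weak for any single gene. The members and lists were chosen with earlier results of these data known, and the naming rule, the Egr3-led group and the examples set against other type 1 cells were chosen after values were seen. Named were the 7 genes, up to 4 genes with the largest age ratios per list at 50 CPM or more, the ligands and partners of the 7, and the 10 genes of most similar pattern at 20 CPM or more. Alternatives changed the doublet, gene number, clustering, pseudocount, scaling, free RNA and low-value settings.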

Additional observations from a re-analysis of the deposited data

How the results depend on the processing

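Over 19 results on counts of genes, shares of UMIs and shares of cells, 134 of 153 alternative values kept their direction and lay within the spread or 1.5 times of the value given. With doublets kept, the mature share of named dendritic UMIs was 85.0% for Ccr7, 69.1% for Fscn1, 43.9% for Relb and 80.2% for Cacnb3, and the genes past 1.5-fold numbered 2 in T/NK cells and 2 in Egr3-led cells, against 1 in each. With free RNA subtracted, the Fscn1 share was 98.3% and the Egr3-led count 0. With unnamed dendritic clusters counted, chosen after seeing the data, the mature share was 69.3% for Ccr7, 80.9% for Fscn1, 42.6% for Relb and 77.9% for Cacnb3, and the Egr3-led share 72.7% for Ccl17 and 69.2% for Ccl22. With at least 1000 genes per cell, the count was 1 in B cells (against 0) and 1 in type 2 cells (against 3), where the log2 ratio of Cd40 turned from -0.60 to 0.31. Without the filter on low values, 2 genes passed in B cells and 3 in T/NK cells. At the dendritic resolution of 0.5 the count in type 1 cells was 0 against 4, and mature, Egr3-led and type 2 results could not be given. The cause was not tested in these cases, except that the free RNA, low-value and unnamed-cluster settings change what is counted by construction. The same 30 mature cells were found in the other 4 clusterings. The ratio of mature cells among all cells was 1.82 to 1.91, and that of Egr3-led cells among type 1 cells 0.379 to 0.482. Of 486 alternative values for single genes, 453 kept, 32 moved and 1 reversed. No paired analysis was possible because each age has 1 library. Depth limits the mature cells most: 30 cells, where a count of 0 allows 37.6 CPM at 6 weeks.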
